A study of Homo sapiens with 4 samples.

Results

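Fibroblast growth factor (FGF) genes were examined for 2 promoter marks in human embryonic stem cells before and after induction of a histone demethylase. The genes were 20 FGF genes counted as ligands, 5 receptors (FGFR1 to FGFR4 and FGFRL1) and 6 feedback inhibitors (SPRY1, SPRY2, SPRY4 and SPRED1 to SPRED3). Among the 20, FGF11, FGF12 and FGF14 are intracellular and were counted as ligands by family only. All genes were found by their gene symbols, and all 31 were present, each with 1 row, among the 20242 promoters of the series. The cells were JMJD3c-hESCs, made from the line SEES-3, in which the reverse Tet-transactivator was expressed throughout and a piggyBac construct placed the HA-tagged catalytic domain of the H3K27 demethylase JMJD3, with a nuclear localization signal, under control of doxycycline (Dox). Untreated cells (−Dox) therefore carried the same constructs as the treated cells (+Dox), which received Dox at 1 µg/ml and were collected on day 3, and both were kept in StemFit AK-03 medium without feeder cells. Stable clones were selected with puromycin, and which clone was used is not given. Chromatin immunoprecipitation sequencing (ChIP-seq) was carried out for trimethylated lysine 27 of histone H3 (H3K27me3) and trimethylated lysine 4 (H3K4me3), with 1 library for each mark and condition. Replicates were lacking for every library, so values and counting intervals are given in place of p-values.

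Secreted FGF ligands bind receptor tyrosine kinases at the cell surface together with heparan sulphate or a Klotho co-receptor. The receptors pass the signal through adaptors and RAS to the kinase ERK. SPRY and SPRED proteins are induced by or act on the same route and dampen it. In human embryonic stem cells FGF signalling helps to maintain the undifferentiated state, and in the embryo the ligands pattern the gastrula, limbs, brain and inner ear. H3K27me3 is laid down by Polycomb complexes at silent developmental genes, H3K4me3 marks active or poised promoters, and promoters with both are called bivalent.

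Values are ngs.plot coverage, scaled by the authors to the reads of the library and summed over 6 kb centred on the transcription start. All windows have the same length, so levels can be set side by side between genes. Library reads, inferred from the smallest step of the values, were about 2629351 for H3K27me3 −Dox and 3509244 for H3K4me3 −Dox. For H3K27me3 +Dox and H3K4me3 +Dox they were the same, 2682085. Whether each +Dox library was scaled to its own reads was not tested. Scaling to other reads would shift every ratio of that mark by a common factor. The median promoter had an H3K27me3 signal of 6.09 in −Dox and 5.97 in +Dox. A promoter was classed as marked when its −Dox signal was above 20, the threshold of the study's methods, which was about 15.7 reads for H3K27me3 and 21.0 reads for H3K4me3. Each ratio is the +Dox signal divided by the −Dox signal and carries a 95% interval from the exact Clopper-Pearson interval of its approximate reads. Such intervals hold the counting error of 2 libraries and nothing else, and PCR copies among the reads would make them too narrow. A lower signal could mean fewer cells with the mark or less of it per cell, and these cannot be told apart in bulk chromatin. In −Dox cells 7 of 8 stem cell marker promoters carried H3K4me3 only. POU5F1, measured from a start other than the canonical one, was below 20 for both marks. Of 5 mesoendoderm marker promoters 4 were bivalent and 1 was H3K4me3-only, and all 3 neuroectoderm marker promoters were bivalent. The paper reports that Dox-treated cells had less of several pluripotency markers and more expression of mesoendodermal genes. The +Dox cells were thus not an unchanged stem cell culture.

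The sequences before the start of 4 members introduce promoters on which the results turn. In +Dox cells the H3K27me3 signal was lower at FGF9 and higher at FGF3, relative to library reads. SPRY2 had the highest H3K4me3 among the 31 in −Dox cells, and FGF23 had neither mark. Each sequence is the 250 bases before the deposited start on GRCh37, 5′ to 3′ on the strand of the gene, with CpG dinucleotides in capitals. FGF9 lies at chr13:22244962-22245211 (plus strand), FGF3 at chr11:69634185-69634434, SPRY2 at chr13:80915262-80915511 and FGF23 at chr12:4488879-4489128 (all minus strand).
FGF9: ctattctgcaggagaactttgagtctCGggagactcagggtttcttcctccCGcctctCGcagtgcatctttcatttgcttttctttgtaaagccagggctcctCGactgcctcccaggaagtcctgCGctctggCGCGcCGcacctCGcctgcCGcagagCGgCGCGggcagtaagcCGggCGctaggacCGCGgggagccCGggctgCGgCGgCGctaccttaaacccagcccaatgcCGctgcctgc
FGF3: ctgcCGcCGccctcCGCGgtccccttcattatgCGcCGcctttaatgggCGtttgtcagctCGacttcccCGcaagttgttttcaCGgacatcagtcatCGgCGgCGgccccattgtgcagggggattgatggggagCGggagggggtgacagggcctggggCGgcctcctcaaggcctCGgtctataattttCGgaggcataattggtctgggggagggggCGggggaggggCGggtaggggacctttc
SPRY2: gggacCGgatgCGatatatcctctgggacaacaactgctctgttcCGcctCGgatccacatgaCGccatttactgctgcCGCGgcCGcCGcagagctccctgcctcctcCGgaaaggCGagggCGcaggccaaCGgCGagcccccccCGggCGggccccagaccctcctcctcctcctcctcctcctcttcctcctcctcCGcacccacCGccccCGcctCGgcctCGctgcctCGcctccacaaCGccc
FGF23: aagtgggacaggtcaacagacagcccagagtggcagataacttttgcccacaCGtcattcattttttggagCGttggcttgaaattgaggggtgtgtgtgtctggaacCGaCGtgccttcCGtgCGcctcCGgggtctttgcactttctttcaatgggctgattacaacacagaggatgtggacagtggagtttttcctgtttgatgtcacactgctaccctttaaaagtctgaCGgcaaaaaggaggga
These stretches held 22 CpGs at FGF9, 19 at FGF3, 23 at SPRY2 and 8 at FGF23. None of the 250 bases was exonic at FGF3, SPRY2 or FGF23, whereas 152 of those at FGF9 lay in exons of a separate annotated gene (ENSG00000289860).

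In −Dox cells all 6 inhibitors and 4 of 5 receptors had H3K4me3 only. The 20 genes counted as ligands were spread over 5 bivalent promoters, 1 with H3K27me3 only, 7 with H3K4me3 only and 7 with neither. The intracellular FGF11 and FGF14 are among these 5 bivalent promoters, and FGF12 is among the 7 with neither mark. Over all 31, 6 promoters were bivalent (19.4%, against 9.42% of all promoters), 1 had H3K27me3 only (3.23% against 1.58%), 17 had H3K4me3 only (54.8% against 54.2%) and 7 were unmarked (22.6% against 34.8%). The bivalent promoters were those of FGF3, FGF9, FGF11, FGF14, FGF18 and FGFRL1, and FGF5 was the one with H3K27me3 only. The members just above the threshold for H3K27me3 were FGF11 and FGFRL1, both at 24.0, and those just below it were FGF8 and FGF10, both at 17.9.

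**Figure D1:**
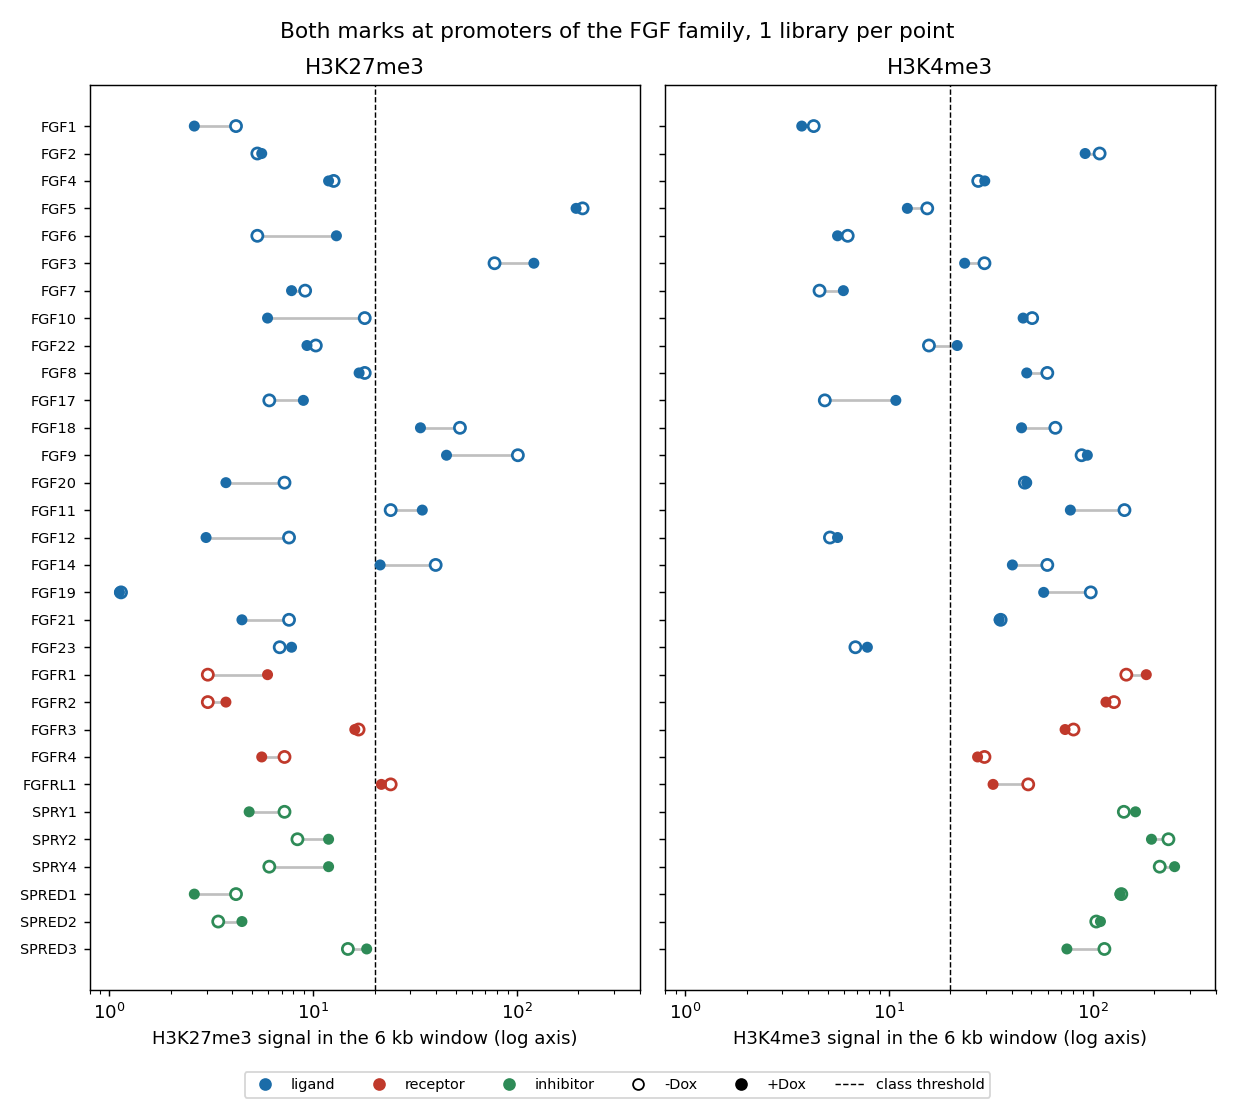
H3K27me3 (left) and H3K4me3 (right) signal in the 6 kb window on log axes, 1 row per gene, with open circles for the −Dox library, filled circles for the +Dox library and a dashed line at 20. Of the 31 promoters 7 lie above the line for H3K27me3 in both conditions, and the inhibitors, in green, lie between 104 and 235 for H3K4me3 in −Dox.

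FGF9 and FGF3, both ligands with H3K27me3, differed in the direction of their H3K27me3 ratio, which is relative to library reads. FGF9, a ligand of gonad and lung development, had H3K27me3 signals of 101 in −Dox and 45.1 in +Dox, about 80 and 36 reads, a ratio of 0.446 (interval 0.289 to 0.662). Its H3K4me3 was 88.1 and 94, a ratio of 1.07 (0.780 to 1.47). FGF9 (ENSG00000102678, chromosome 13, window 22242212 to 22248212) was the only member with an H3K27me3 interval below 1, or 3.23% of the 31 against 7.05% of all promoters with a ratio. Among bivalent promoters it was 1 of 6 members (16.7%) against 48.5%. FGF3 (ENSG00000186895, chromosome 11, 69631184 to 69637184), needed for inner ear development, had H3K27me3 signals of 77.6 in −Dox and 121 in +Dox, about 61 and 97 reads, a ratio of 1.56 (1.12 to 2.18). It was the only member with an interval above 1, or 3.23% of the 31 against 1.59% of all promoters, and 16.7% of the bivalent members against 2.15% of bivalent promoters. With 0.5 of the approximate reads the interval of FGF3 included 1. The H3K4me3 of FGF3 was low, at 29.4 and 23.5, with a ratio of 0.8 (0.431 to 1.47).

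The other promoters above 20 for H3K27me3 had intervals that included 1. FGF5 (ENSG00000138675, chromosome 4, 81185096 to 81191096), a ligand of the epiblast, had the highest H3K27me3 of the family, 209.9 in −Dox and 195 in +Dox, which placed it 49th and 100th of all promoters from the top. Its ratio was 0.929 (0.745 to 1.17), and its H3K4me3 was 15.4 and 12.3. FGF18, a ligand of cartilage and bone growth, had H3K27me3 signals of 52.5 and 33.6 with a ratio of 0.639 (0.382 to 1.08). FGF14, an intracellular member that binds sodium channels, had 39.9 and 21.3 with a ratio of 0.532 (0.279 to 1.00). At FGFRL1, a receptor without a kinase domain that can act as a decoy, the values were 24.0 and 21.6 and the ratio was 0.903 (0.428 to 1.78). FGF11, another intracellular member, had 24.0 and 34.3 with a ratio of 1.43 (0.779 to 2.74). H3K27me3 was thus numerically lower in +Dox at 4 of the 6 bivalent members and higher at 2, while 12.4% of all bivalent promoters were higher. After scaling to the same total FGFRL1 had a ratio of 1.06, which gave 3 lower and 3 higher. The share of all bivalent promoters was not recomputed with this scaling.

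All 7 promoters above 20 for H3K27me3 in −Dox cells were still above 20 in +Dox cells. The 6 bivalent members were all still bivalent, compared with 51% of bivalent promoters in general, though FGF14 at 21.3 and FGFRL1 at 21.6 were close to the threshold. The bivalent class was set from −Dox values, so promoters that passed 20 only in −Dox are included, which favours lower +Dox values. This applies to every share and median over bivalent promoters given here. Such shares over all promoters, with classes from both conditions, are not given. H3K27me3 had a ratio below 0.5 at 1 of the 6, FGF9, where 40.8% of all bivalent promoters had one, and at 0 of the 6 after scaling to the same total, which put FGF9 at 0.525. It was below 0.66 at 3 of the 6, FGF9, FGF14 and FGF18, where 61.4% did. The median log2 H3K27me3 ratio was −0.40 over the 6 (from −1.17 to 0.64) and −0.81 over all bivalent promoters. That of the members was −0.16 after scaling to the same total and −0.06 without FGF14 and FGFRL1, whose deposited starts are over 1000 bases from the canonical ones. Scaling to the same total multiplied +Dox H3K27me3 by 1.18, which would raise the ratios of all promoters alike. The shares and the median over all bivalent promoters are given without it, so they cannot be set beside the rescaled values of the members. With 6 promoters and 1 library per condition, no difference between these shares or medians was tested. The only member whose class changed was FGF22, a ligand of synapse formation, which went from unmarked to H3K4me3-only with H3K4me3 signals of 15.7 and 21.6, a ratio of 1.38 (0.664 to 2.96).

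**Figure D2:**
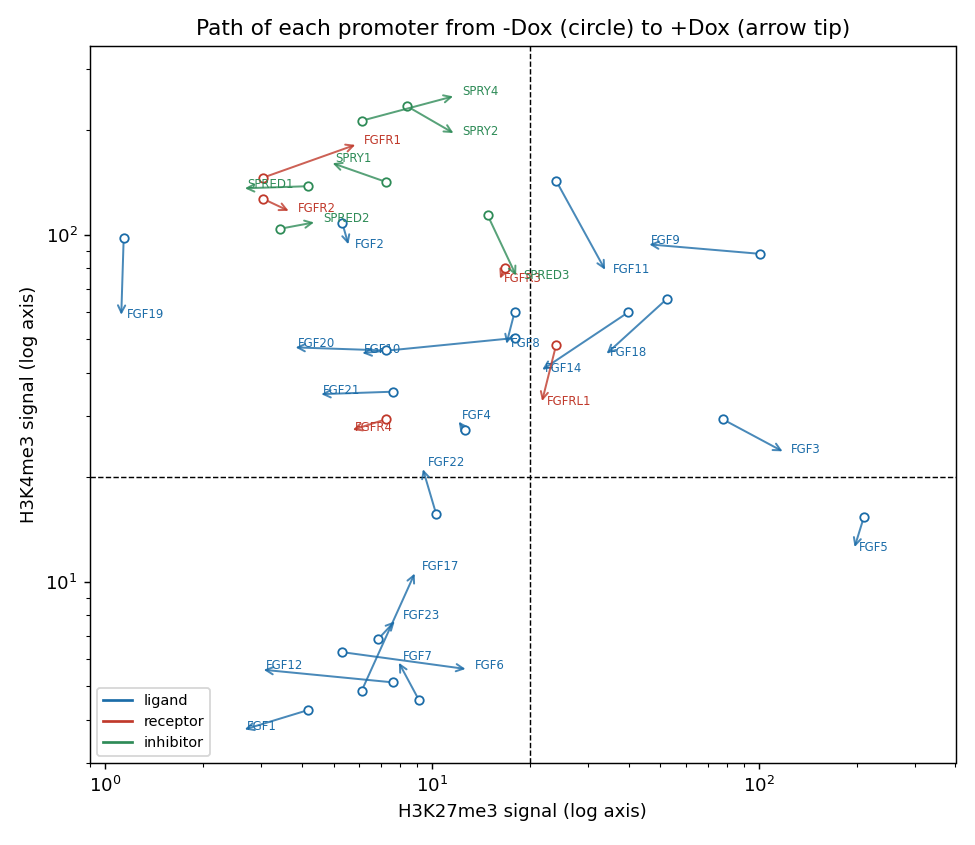
Each of the 31 promoters in the plane of H3K27me3 (x) and H3K4me3 (y) signal, both on log axes, as an arrow from its −Dox value (circle) to its +Dox value (tip), with dashed lines at 20. The 6 bivalent promoters stay in the upper right field, FGF9 moves left at nearly constant H3K4me3, FGF3 moves right, and FGF11 and FGF19 move down.

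H3K4me3 was lower in +Dox at 3 members, with intervals below 1. FGF11 (ENSG00000161958, chromosome 17, 7339831 to 7345831) had 143 in −Dox and 77.6 in +Dox, about 150 and 62 reads, a ratio of 0.541 (0.398 to 0.736). Its window overlaps those of TMEM102, whose start is 4077 bp away, and CHRNB1, 5549 bp away. TMEM102 itself had H3K4me3 signals of 101 and 61.5, a ratio of 0.606 (0.425 to 0.861), so reads of this region cannot be assigned to one gene. FGF19 (ENSG00000162344, chromosome 11), a hormone that restrains bile acid synthesis, had 97.7 in −Dox and 57.4 in +Dox, about 102 and 46 reads, a ratio of 0.587 (0.410 to 0.849). H3K27me3 was nearly absent at FGF19, at 1.14 and 1.12, which is about 1 read in each library. SPRED3 (ENSG00000188766, chromosome 19, 38876061 to 38882061) had 114 in −Dox and 74.6 in +Dox, with 0.654 as the ratio (0.469 to 0.899), and shares most of its window with GGN, which starts 387 bp away and had 118 and 73.5. With 0.5 of the approximate reads the SPRED3 interval included 1.

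These 3 were 9.68% of the members, against 3.07% of all promoters with an interval below 1 for H3K4me3. An interval excludes 1 more readily where there are more reads. The median −Dox H3K4me3 was 59.8 over members and 43.3 over all promoters with signal in both conditions. FGF11 was the 1 of 6 among bivalent members (16.7%, against 10.1% of bivalent promoters). When H3K4me3 was scaled by the promoters with low signal, which multiplied +Dox values by 0.941, FGF14, FGF18 and SPRY2 joined FGF11, FGF19 and SPRED3. No member had an H3K4me3 interval above 1, compared with 1.77% of all promoters, but after scaling to the same total FGFR1 and SPRY4 did. The median log2 H3K4me3 ratio was −0.56 over the 6 bivalent members and −0.18 over all bivalent promoters, and −0.11 over the 17 members with H3K4me3 only against −0.03 over all such promoters. Of the 6 bivalent members 5 had less H3K4me3 in +Dox, with FGF9 as the exception. Most bivalent promoters in general, 1289 of 1907, also had less, and the difference between these shares was not tested. FGF18 went from 65.5 to 44.7 (ratio 0.683, 0.446 to 1.04), FGF14 from 59.8 to 40.3 (0.673, 0.423 to 1.04) and FGFRL1 from 48.2 to 32.4 (0.674, 0.409 to 1.12), and none of these intervals lay clear of 1 for either mark.

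**Figure D3:**
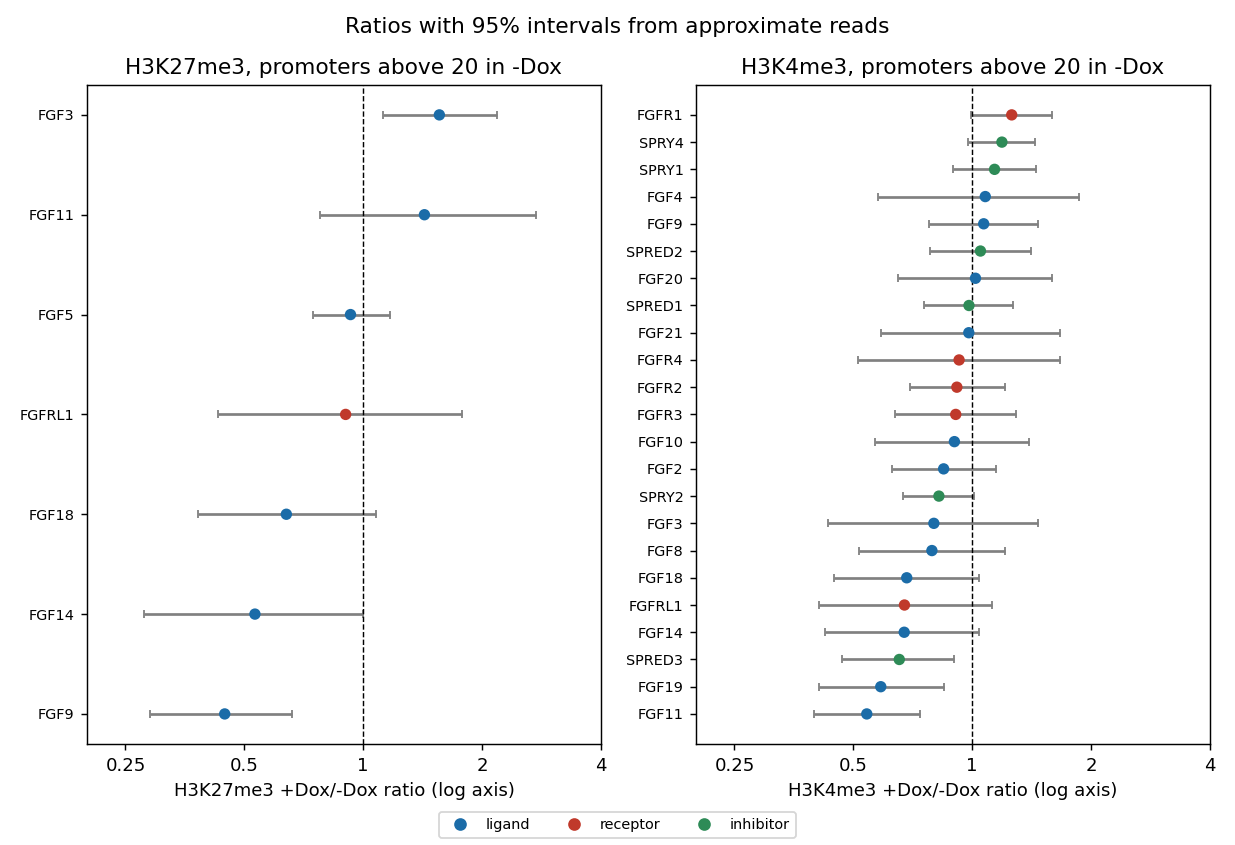
Ratio of +Dox to −Dox signal on a log axis with 95% intervals from approximate reads, for the 7 members above 20 for H3K27me3 in −Dox (left) and the 23 above 20 for H3K4me3 (right), ordered by ratio. For H3K27me3 only FGF9 (0.446) and FGF3 (1.56) lie clear of 1, and for H3K4me3 only FGF11 (0.541), FGF19 (0.587) and SPRED3 (0.654).

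The receptors were led by FGFR1, the main receptor for FGF2, with H3K4me3 signals of 146 in −Dox and 183 in +Dox, a ratio of 1.26 (0.994 to 1.59). FGFR2 had 127 and 116 (ratio 0.915, 0.698 to 1.21), and FGFR3 had 80.4 and 73.1 (0.909, 0.639 to 1.29). FGFR4, a partner of FGF19 in the liver, was lowest with 29.4 and 27.2 (0.927, 0.515 to 1.67). The order FGFR1, FGFR2, FGFR3 and FGFR4 was the same in both conditions. H3K27me3 at these 4 receptors lay between 3.04 and 16.7 in −Dox and between 3.73 and 16.0 in +Dox, with FGFR3 highest in each.

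The inhibitors had a median H3K4me3 signal of 140.3 in −Dox, against 80.4 for the receptors and 32.3 for the ligands, with SPRY2 and SPRY4 the highest of the 31 members. SPRY2 had 235 in −Dox and 194 in +Dox (ratio 0.824, 0.667 to 1.01), and SPRY4 had 213 and 252 (1.19, 0.976 to 1.44), ranking 7th and 14th of all promoters before induction and 34th and 4th after it. SPRY1 had 142 and 162 (1.14, 0.893 to 1.45), SPRED1 138 and 136 (0.982, 0.757 to 1.27) and SPRED2 104 and 109 (1.05, 0.783 to 1.41). All 6 were in the top 10% of promoters in −Dox cells, as were 10 of the 31 members. H3K27me3 at the inhibitors ranged from 3.42 to 14.8 in −Dox and from 2.61 to 18.3 in +Dox, the highest being SPRED3 in both.

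Among ligands with H3K4me3 only, FGF2, whose protein is added to stem cell cultures, had 108 and 91.7 (ratio 0.847, 0.625 to 1.15). FGF8, which patterns the gastrula and the midbrain border, had 59.8 and 47.4 (0.791, 0.516 to 1.21), and FGF10, a ligand of limb and lung buds, had 50.4 and 45.5 (0.902, 0.569 to 1.39). FGF20, a close relative of FGF9, had 46.4 and 47.4, FGF21, a metabolic hormone, 35.3 and 34.7, and FGF4, a ligand of the early embryo, 27.4 and 29.5, and all of these intervals included 1. H3K27me3 at FGF10 went from 17.9 to 5.97, about 14 and 5 reads, a ratio of 0.334 with an interval of 0.0987 to 1.03. The 24 members at or below 20 for H3K27me3 had from 1 to 14 reads of this mark in −Dox and from 1 to 15 in +Dox. Their ratios ran from 0.334 to 2.45, and all 24 intervals included 1. No change of H3K27me3 was thus detected there, and at this depth large changes could also be missed. Even the ratio of 0.334 at FGF10 had an interval that included 1.

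The 7 unmarked promoters were all of ligands, namely FGF1, which binds all FGF receptors, FGF6, a ligand of muscle, FGF7, which acts on epithelia, the intracellular FGF12, FGF17, a relative of FGF8, FGF22 and FGF23, a hormone of phosphate balance. Their H3K4me3 ranged from 4.27 to 15.7 in −Dox and from 3.73 to 21.6 in +Dox, and their H3K27me3 from 4.18 to 10.3 and from 2.61 to 13.0. FGF17 had the highest H3K4me3 ratio of the family, 2.23 (0.713 to 9.00), from about 5 and 9 reads. The deposited start was over 1000 bases from the canonical start of the gene at 5 members. It was 11962 bp away at FGF1, 40223 bp at FGF12, 1596 bp at FGF6, 485103 bp at FGF14 and 1647 bp at FGFRL1. At FGF1, FGF12 and FGF14 the values thus describe an alternative start. At FGF6 and FGFRL1 the canonical start lies inside the 6 kb window, so the values cover it as well. The start of FGF5 was 278 bp from the canonical one.

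Genes of one subfamily or one cluster often fell into different classes. FGF3, FGF4 and FGF19 lie side by side on chromosome 11, with starts 44.1 kb and 71.3 kb apart, and were bivalent, H3K4me3-only and H3K4me3-only. Their H3K27me3 signals in −Dox were 77.6, 12.6 and 1.14, and in +Dox 121, 11.9 and 1.12. FGF6 and FGF23, 64.5 kb apart on chromosome 12, were both unmarked. Within the FGF9 subfamily H3K27me3 in −Dox was 101 at FGF9 and 7.23 at FGF20, within the FGF4 subfamily it was 209.9 at FGF5, 12.6 at FGF4 and 5.32 at FGF6, and within the FGF8 subfamily it was 52.5 at FGF18, 17.9 at FGF8 and 6.09 at FGF17. Of the subgroups with at least 3 genes, SPRY, SPRED and FGFR1 to FGFR4 were the only ones whose genes all fell into 1 class. In the FGF11 subfamily FGF11 and FGF14 were bivalent and FGF12 was unmarked, but FGF12 and FGF14 were measured at alternative starts.

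CpG content was read from GRCh37 as a feature that the choice of genes did not use. The 6 kb windows of the members held from 39 CpGs at FGF12 to 443 at FGFRL1, with a median of 264, against a median of 156 over the 18231 promoters that could be placed. The bivalent members had a median of 316, the H3K4me3-only members 272 and the unmarked members 68, while the corresponding medians over all promoters were 219, 180.0 and 78. FGF22, with 313 CpGs, was the CpG-rich exception among unmarked members, and FGF14, with 134, the CpG-poor one among bivalent members. In the 300 bases from 250 before to 50 after each start, TATAAA was found on either strand at FGF12 and FGF14 (6.45% of members, 9.97% of all promoters). The core of an ETS factor motif, CCGGAAGT, was found at 0 of the 31 and at 5.53% of all promoters.

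**Figure D4:**
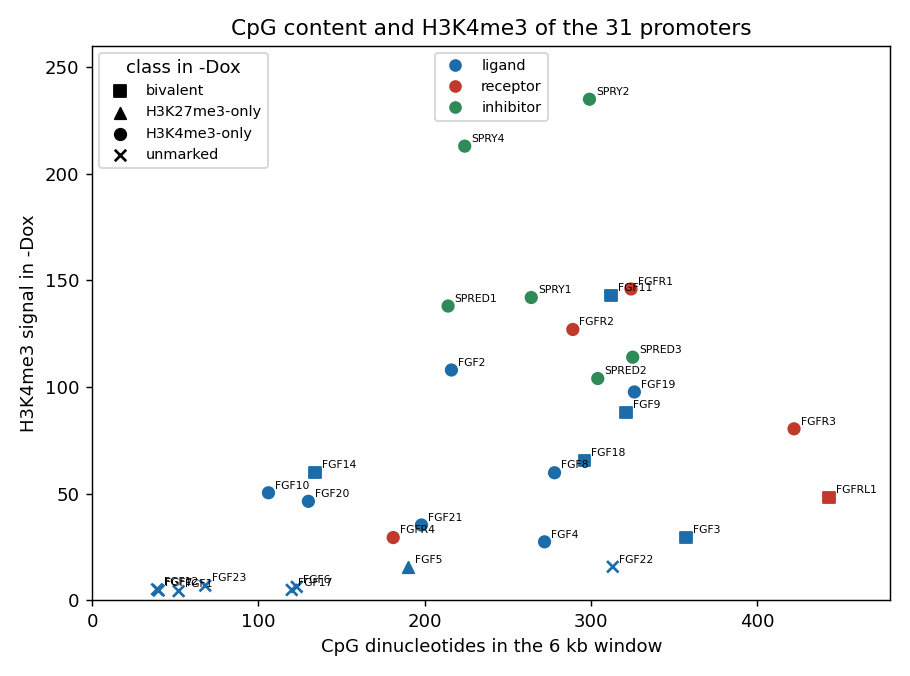
H3K4me3 signal in −Dox (y, linear axis) against the number of CpG dinucleotides in the 6 kb window (x) for the 31 promoters, coloured by role and shaped by class. Unmarked promoters other than FGF22 (313 CpGs) lie at 123 CpGs or fewer, and SPRY2 and SPRY4 lie highest at 235 and 213.

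Other genes of the pathway were examined as a list of 40, made up of co-receptors, adaptors, the RAS to ERK cascade and target genes. Of these 7 were bivalent (17.5%, against 9.42% of all promoters), 28 H3K4me3-only (70%, against 54.2%) and 5 unmarked (12.5%, against 34.8%). Among the unmarked genes, FLRT1, ETV4 and IL17RD were measured 67257, 33280 and 4953 bp from their canonical starts. Their canonical promoters thus lay outside the windows and were not measured. The H3K27me3 interval lay below 1 at 4 (10%, against 7.05%) and above 1 at 0 (against 1.59%). DUSP4, a phosphatase that inactivates ERK, had H3K27me3 signals of 116 and 21.3, a ratio of 0.183 (0.101 to 0.306), with H3K4me3 at 165 and 179. FLRT2, a membrane protein of the FLRT family that can bind FGF receptors, had 93.9 and 32.1, a ratio of 0.341 (0.211 to 0.545). GPC1, a heparan sulphate proteoglycan, had 27 and 10.1 (0.373, 0.143 to 0.878), and ETV5, an ETS factor induced by FGF signalling, had 24.3 and 10.1 (0.414, 0.156 to 0.987). After scaling to the same total, or with 0.5 of the approximate reads, only DUSP4 and FLRT2 remained below 1. GPC1 was also the 1 gene of the list with an H3K4me3 interval below 1 (2.5%, against 3.07% of all promoters), from 80.9 to 49.6 (0.613, 0.402 to 0.892). The remaining bivalent genes were KL, the Klotho co-receptor of FGF23, with an H3K27me3 ratio of 0.916 (0.590 to 1.42), GPC2 with 0.568 (0.236 to 1.33) and EGR1 with 1.02 (0.531 to 2). All 8 adaptors and all 10 cascade genes were H3K4me3-only, and none of their intervals excluded 1 for either mark. The adaptors FRS3 and SHC1 were measured 6642 and 3629 bp from their canonical starts, and for FRS2 and SOS1 no distance was available.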

How the data were processed

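JMJD3c-hESC chromatin was sequenced as single-end reads by the authors, who mapped it to hg19 with Bowtie2 and discarded mitochondrial reads. CASAVA 1.4 is named in the submitters' processing notes, and other versions are not given in the sources used here. The deposited values are signal, that is, ngs.plot coverage per promoter scaled to library reads, made by the authors without pooling. Whether their scaling to the density after transcription ends was applied to it is not stated, and no input library was used here. With scaling to library reads, a change common to all of the genome is not visible.

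All values were whole multiples (within 0.01 of a step) of 0.38, 0.373, 0.285 and 0.373 in H3K27me3 −Dox, H3K27me3 +Dox, H3K4me3 −Dox and H3K4me3 +Dox. Dividing by the step and by the 3.34, 3.34, 3.35 and 3.37 data points per read, estimated from the spacing of low values, gave approximate reads, in all 197645, 171355, 962948 and 713535 in the windows. Ratios had no pseudocount, and promoters at 0 in −Dox had none. Shares and medians over all promoters are given without rescaling, also where values of members or pathway genes were rescaled. Intervals were computed with scipy 1.17.1 and checked on simulated data.

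Starts, annotation and sequence were read from GRCh37 with GENCODE 44 by transcript identifier, which placed 18231 promoters (90.1%) and all 31 members. A start may differ slightly from the annotation release of the authors, which is not given in the sources used here. Windows of unplaced promoters were not checked for overlap. All 31 members were to be accounted for, with 4 values where H3K27me3 exceeded 20 or an interval excluded 1, and of the 40 other pathway genes those whose interval excluded 1. The members and lists were chosen with earlier results of these data known. Alternatives were other scalings, pseudocounts, class thresholds and classes, a filter on low values, 0.5 of the reads, and leaving out overlapping windows or distant starts.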

Additional observations from a re-analysis of the deposited data

How the results depend on the processing

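Recomputing the 10 summary results under the alternatives gave 91 values. Of these 82 stayed within an interval around the reported median or within 1.5 times the reported count, and no median changed sign. For the 17 H3K4me3-only members the interval was −0.24 to 0.07. For the 6 bivalent members it was the full range, −1.17 to 0.64 for H3K27me3 and −0.89 to 0.09 for H3K4me3. A median can hardly leave the range of its own genes, so staying inside it says little. The median log2 H3K27me3 ratio of bivalent members ranged from −0.91 at a class threshold of 40 to −0.06 without starts over 1000 bases from the canonical one. No single ratio whose interval excluded 1 changed direction in 248 recomputed ratios, and all of these stayed inside their intervals. With libraries scaled to the same total, 0 bivalent members had an H3K27me3 ratio below 0.5, as FGF9 then lay just above it, 2 members had an H3K4me3 interval above 1, and 2 pathway genes had an H3K27me3 interval below 1. Scaling over low promoters gave 6 members with an H3K4me3 interval below 1. A class threshold of 10 gave 13 bivalent members, 2 of them with an H3K27me3 ratio below 0.5, and a threshold of 40 gave 2. Without members that have overlapping windows, 1 member, FGF19, had an H3K4me3 interval below 1, since FGF11 and SPRED3 were left out. Taking 0.5 of the approximate reads left 2 pathway genes with an H3K27me3 interval below 1. For the other moves the cause was not tested. All members were placed at an annotated start, so that exclusion removed no gene, and leaving out starts over 1000 bases from the canonical one was chosen after seeing the data. No paired analysis was possible because groups hold a single library, which also means that none could be left out. Depth limited H3K27me3 at the members below 20, which had at most 15 reads.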

Other observations

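Relatives of the family outside the 31 genes, chosen after their values were seen, were measured in the same libraries. FGF13 (ENSG00000129682, chromosome X, 138284185 to 138290185), the fourth intracellular FGF, was bivalent in −Dox and H3K4me3-only in +Dox cells. Its H3K27me3 signal was 32.7 in −Dox and 1.12 in +Dox, about 26 and 1 reads, a ratio of 0.0342 (0.00092 to 0.230), while its H3K4me3 was 55.6 and 57, a ratio of 1.03 (0.676 to 1.53). The deposited start of FGF13 is 493306 bp from the canonical one. The ratio was thus lower than that of FGF9, the lowest among the 6 bivalent promoters described above, and it belongs to the extremes by the way it was picked. FGF11 and FGF14, its intracellular relatives with H3K27me3, had ratios of 1.43 and 0.532. FGF16, a relative of FGF9, had from 1 to 3 reads of either mark in each library. Of the FGF binding proteins, which carry ligands away from the matrix, FGFBP1 and FGFBP2 were unmarked and FGFBP3 was H3K4me3-only, with H3K4me3 signals of 78.4 and 67.5.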
